A study of Mus musculus with 33 samples.

Results

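LSU-Am4541, listed by the authors as A4541, is an adenosine of mouse 28S ribosomal RNA (rRNA), at position 4224 of the deposited mouse 28S sequence and 4541 in human numbering. It was 1 of the 108 sites that the authors listed as carrying a methyl group on the ribose, and it was chosen here because its methylation score in fetal liver was about 0.45, far below that of any other group. Those fetal liver values are therefore a description, without a test. The series covered brain, heart, kidney, liver and lung of adult mice and of embryos at day E16.5, and whole heads of embryos at day E9.5, which the sample titles call brain. Each of the 11 groups held 3 libraries of whole-cell RNA from tissue, biological replicates per the study's design text, which does not say whether each came from 1 animal or a pool. The labels give no strain, sex, adult age or treatment. The deposited counts cover only rRNA, so the labelled tissues could not be checked against cell type markers.

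Ribose methylation of rRNA is placed by fibrillarin, the methyltransferase of box C/D ribonucleoprotein particles, in which a small nucleolar RNA pairs with the rRNA and selects the nucleotide. Most sites of vertebrate rRNA are methylated on nearly every copy, while some are methylated on only part of the ribosomes of a cell or tissue. The fetal liver is a main site of blood cell formation, whereas the adult liver consists largely of hepatocytes. In whole tissue, a low score in all cells and a very low score in some of them cannot be told apart. The guide of LSU-Am4541 is not given in the sources used here.

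RiboMeth-seq rests on alkaline cleavage, which is poor at a methylated ribose, so few read ends fall on a methylated nucleotide. The score of a nucleotide compares its read ends with those of the 6 nucleotides before and the 6 after it, weighted by nearness; it is 1 minus their ratio and runs from 0 (no methylation read) to 1 (all copies read as methylated). The score of LSU-Am4541 rests on the 13 nucleotides from 4218 to 4230 of mouse 28S rRNA, written 5′ to 3′ with the site in capitals, because every value below is read from these bases.

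Am4541 window: cugaugAuguguu

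The stretch from 4183 to 4282 shows the listed sites around it, again in capitals. These are Cm4506, Am4541, Am4560, Gm4588, Um4590 and Gm4593 from left to right.

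28S 4183 to 4282: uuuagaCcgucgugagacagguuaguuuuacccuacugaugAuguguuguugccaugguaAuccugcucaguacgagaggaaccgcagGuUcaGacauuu

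The window of LSU-Am4541 holds no other listed site. Both sequences were read from the deposited sheets.

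In fetal liver the 3 libraries scored 0.43, 0.469 and 0.464, a mean of 0.454 ± 0.0211 (SD, n = 3). All 3 lay below every one of the other 30 libraries, of which the third E16.5 lung library was lowest at 0.774. In adult liver the site scored 0.973, 0.951 and 0.965, a mean of 0.963 ± 0.0116. The site was thus read as nearly fully methylated in adult liver, and the deposited means differed by 0.508. Expressed as 1 minus the score, the part read as unmethylated was 0.546 in fetal liver, 14.7 times the adult liver's 0.0372 and 2.5 times that of E16.5 lung, at 0.218. These ratios hold for the deposited score only, since the fetal liver level moved with the neighbours used, as given below.

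The other embryonic groups lay close together, between 0.78 and 0.88 in their means. E16.5 lung scored 0.776, 0.795 and 0.774, a mean of 0.782 ± 0.0117. E16.5 kidney scored 0.809, 0.845 and 0.819, a mean of 0.824 ± 0.0187, with no overlap with lung. E9.5 whole heads followed at 0.841, 0.822 and 0.832, a mean of 0.832 ± 0.00944. The E9.5 heads overlapped E16.5 kidney, which lay below them, and E16.5 brain, which lay above. E16.5 brain scored 0.848, 0.828 and 0.889, a mean of 0.855 ± 0.0311. E16.5 heart scored 0.868, 0.839 and 0.914, a mean of 0.874 ± 0.0381. Brain and heart also overlapped, so only the steps from liver to lung and from lung to kidney were free of overlap among the embryonic groups.

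Adult tissues came next in the order of means. Adult lung scored 0.903, 0.879 and 0.943, a mean of 0.908 ± 0.0325, and its range overlapped that of E16.5 heart below it and that of adult brain above it. Adult brain scored 0.959, 0.939 and 0.951, a mean of 0.95 ± 0.00995. Adult heart scored 0.971, 0.943 and 0.969, a mean of 0.961 ± 0.0157. Adult kidney was highest, at 0.967, 0.955 and 0.981, a mean of 0.968 ± 0.0128. The ranges of adult brain, heart, liver and kidney all overlapped with those of their neighbours in this order, as the plot of scores by library shows.

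**Figure D1:**
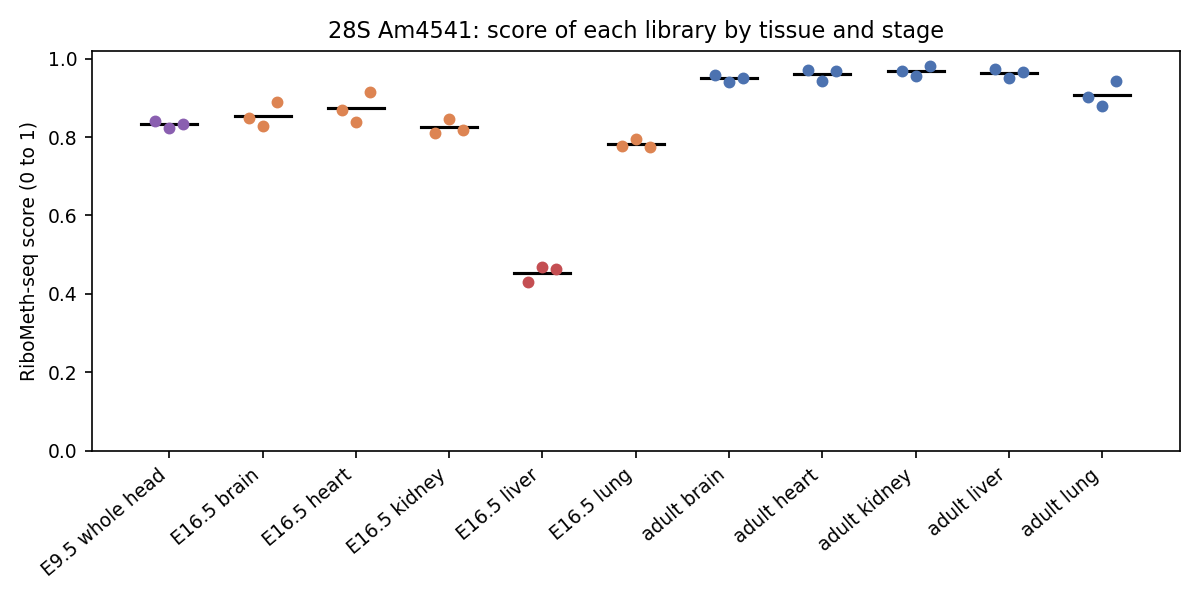
RiboMeth-seq score of LSU-Am4541 (0 to 1) in each of 33 libraries, grouped by stage and tissue; points are libraries and bars the mean of 3. The 3 fetal liver libraries lie between 0.43 and 0.469, all other embryonic libraries between 0.774 and 0.914, and the adult libraries between 0.879 and 0.981.

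The read ends behind the score show where fetal liver stood apart. At A4224 itself, fetal liver had 473, 1473 and 943 read ends against weighted flanking means of 830, 2775 and 1758. The adult liver libraries had 195, 445 and 257 read ends against flanking means of 7345, 8993 and 7246. Their total read ends were also higher, at 19758071, 18536379 and 18483795, against 2121915, 8512345 and 1859984 in fetal liver. As a share of all read ends in the 13-nucleotide window, A4224 took 5.13% (exact 95% binomial interval 4.69 to 5.6), 4.67% (4.44 to 4.91) and 4.76% (4.46 to 5.06) in the fetal liver libraries. The highest share in any other library was 2.05% (1.79 to 2.33), in the third E16.5 lung library. The adult liver libraries stood at 0.224% (0.194 to 0.258), 0.429% (0.39 to 0.471) and 0.307% (0.27 to 0.346). These intervals treat read ends as independent and leave out differences between replicates. Amplified reads without molecular identifiers are not independent molecules, so the intervals can be too narrow even for counting error. Across all 33 libraries the site had from 33 to 1585 read ends and flanking means from 830 to 16858.

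The neighbours varied between groups as well, among them U4225, the nucleotide just 3′ of the site. Relative to the weighted flanking mean, U4225 had 3.26 ± 0.306 (SD, n = 3) in fetal liver, the highest of the 11 groups, then 2.84 in E9.5 heads. It lay from 1.19 to 1.22 in adult liver, E16.5 brain and adult brain. Upstream, fetal liver was lowest of all groups from C4218 to A4221, at 0.258 to 0.467. The highest and lowest groups differed by 3.44 times at U4219 and 2.74 times at U4225, against 16.9 times at A4224. G4226, U4229 and U4222 varied least, by 1.46, 1.35 and 1.51 times.

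**Figure D2:**
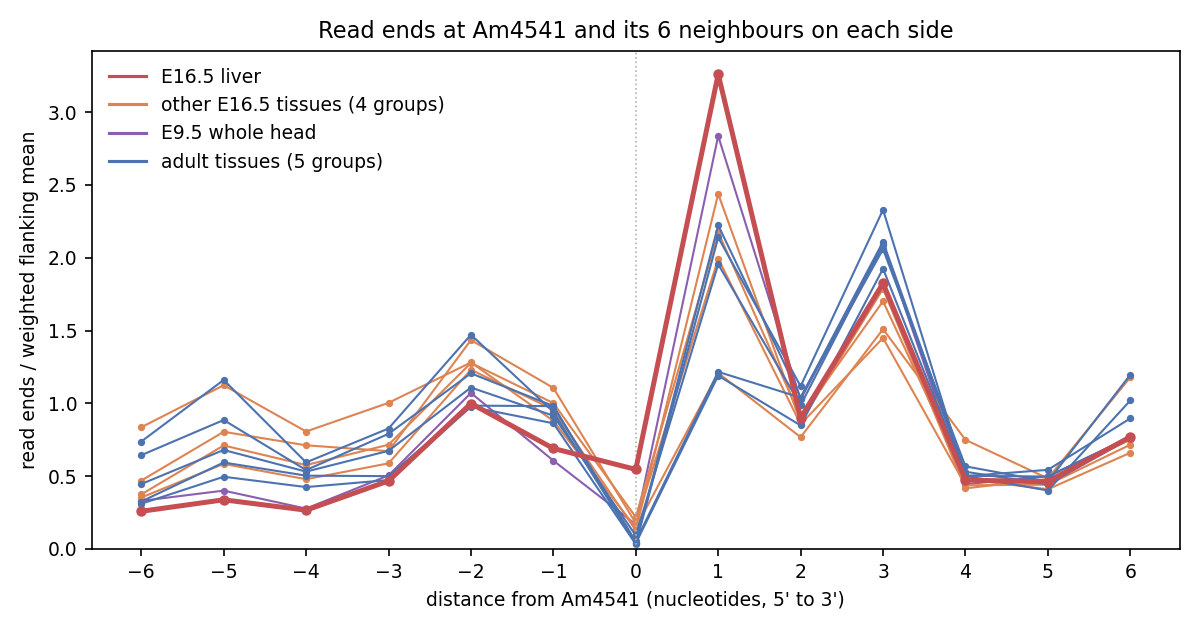
Read ends at each nucleotide over the weighted mean of the neighbours of LSU-Am4541 (y axis, mean of 3 libraries per group), by distance from the site in nucleotides (x axis). At distance 0 fetal liver lies at 0.546 and the other groups from 0.0322 to 0.218, and at distance 1 fetal liver is also highest, at 3.26.

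The level in fetal liver moved with the neighbours used. Scored without U4225, an alternative chosen after seeing the data, fetal liver fell from 0.454 to 0.237 ± 0.0705 (SD, n = 3), and with only 2 neighbours on each side, weighted equally, it stood at 0.627 ± 0.008. In both cases it remained the lowest group, and the lowest score of any other library was 0.73 and 0.833. Within the fetal liver window, 4 of the 12 neighbours, none of them listed as methylated, scored at or above the site in the deposited means, and the highest was G4220 at 0.626. In the other 10 groups 0 neighbours reached the site's score, and their highest neighbour was G4220 in E9.5 heads, at 0.574. Fetal liver was the lowest group under each of the 6 scorings compared here, while its own level moved from 0.237 to 0.627 with the neighbours used. These were the deposited one, 5′ ends, 3′ ends, 2 neighbours, without U4225 and thinned to the shallowest library. All 6 reuse the read ends that chose the site, so their agreement is a description and not separate support.

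The 5′ and 3′ ends of the reads give parts of the same score that can be set side by side. From 5′ ends alone fetal liver scored 0.404, 0.454 and 0.456, and the lowest other library was the first E16.5 lung library at 0.772. From 3′ ends alone it scored 0.687, 0.571 and 0.572, and the lowest other library was the third E16.5 lung library at 0.734. Fetal liver was lowest from both, with a gap to E16.5 lung of 0.341 from 5′ and 0.174 from 3′ ends. The 3′ values rest on few reads, since the fetal liver libraries had 24, 157 and 52 3′ ends at the site against 449, 1316 and 891 5′ ends. Adult tissues were spread more widely by 3′ ends, from 0.773 in the second adult lung library to 0.982 in the first adult liver library, than by 5′ ends, from 0.925 to 0.984.

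**Figure D3:**
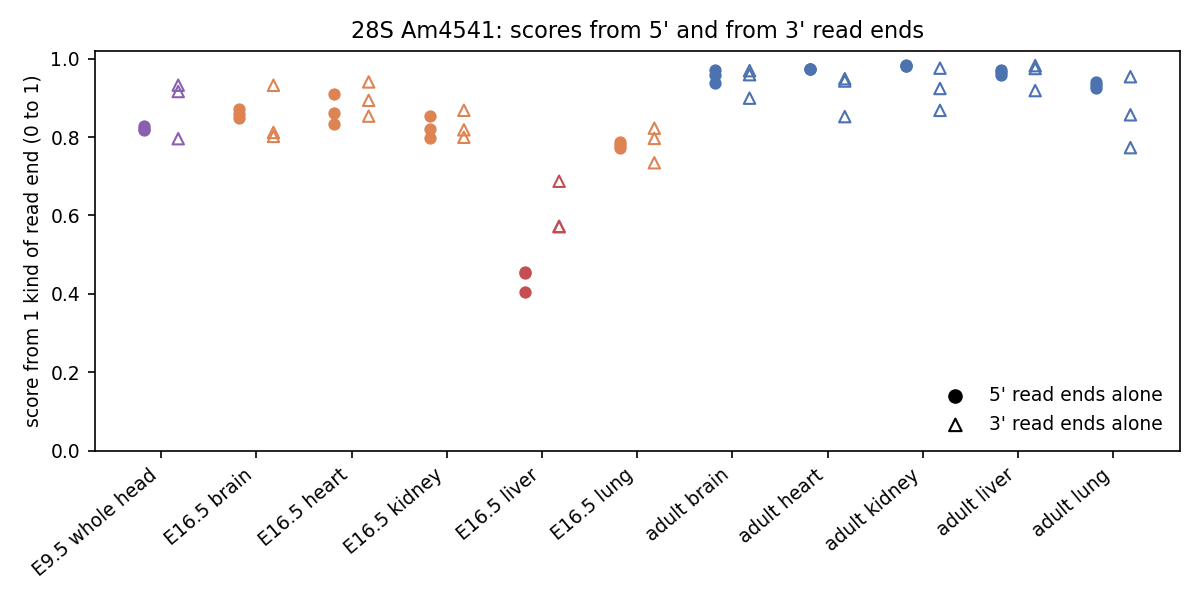
Score of LSU-Am4541 from 5′ read ends alone (filled circles) and from 3′ read ends alone (open triangles) in each library, by group. Fetal liver is lowest from both kinds of end, at 0.404 to 0.456 and 0.571 to 0.687, and the 3′ scores of the other groups spread more widely than the 5′ scores.

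The comparisons without fetal liver asked whether the site also changed with stage elsewhere. Their differences left fetal liver out, but its libraries entered the shared estimate of spread behind limma's SE, interval and p. Over brain, heart, kidney and lung with equal weight, LSU-Am4541 rose by 0.113 ± 0.013 (SE, 95% interval 0.0863 to 0.14) from E16.5 to adult, with a limma adjusted p of 1.31e-07 over the 107 sites tested. In this comparison 19.6% of the sites were called higher and 1.87% lower, and the median difference over all sites was 0.0253. LSU-Am4541 had the rise ranked 11 of 107. From 3′ ends alone the rise was 0.0708 with an adjusted p of 0.0972, which missed the threshold of 0.05.

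In kidney the site rose by 0.143 ± 0.026 (SE, adjusted p = 0.000241), and the part read as unmethylated was 5.45 times as large at E16.5 as in adults. In lung it rose by 0.127 ± 0.026 (adjusted p = 0.000926). Of all sites, 8.41% were called higher and 2.8% lower in kidney, and 14% higher and 15.9% in either direction in lung, and the 3 adult libraries lay above the 3 embryonic ones in both tissues. Brain differed by 0.0949 ± 0.026 (adjusted p = 0.0214) and heart by 0.0873 ± 0.026 (adjusted p = 0.038), with 5.61% of sites called higher and 7.48% called in either direction in each, and again no overlap of libraries. The brain and heart calls were lost when 1 library was left out, for 5 of the 6 libraries of each tissue. The brain difference then ranged from 0.0814 to 0.112 and the heart difference from 0.0698 to 0.108, with adjusted p up to 0.128 and 0.171. They were also lost once all libraries were shifted to 1 median score, at 0.0718 (adjusted p = 0.286) and 0.0725 (adjusted p = 0.231). Median scores over all tested sites were 0.97 to 0.972 in adult brain and 0.941 to 0.953 in E16.5 brain, and 0.948 to 0.956 in adult heart and 0.933 to 0.939 in E16.5 heart. Kidney and lung kept their calls when any 1 library was left out. With library medians set equal their differences were smaller, at 0.109 in kidney (limma adjusted p = 0.0111) and 0.0862 in lung (0.0419, close to the threshold). From 3′ ends alone none of the 4 tissues was called by limma, the difference being 0.0187 in heart, 0.0767 in lung, 0.0938 in kidney and 0.094 in brain (adjusted p from 0.38 to 0.879). The call of kidney ended in a model of its own 6 libraries, at an adjusted p of 0.0785, as did that of lung at 0.341 and heart at 0.225.

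**Figure D4:**
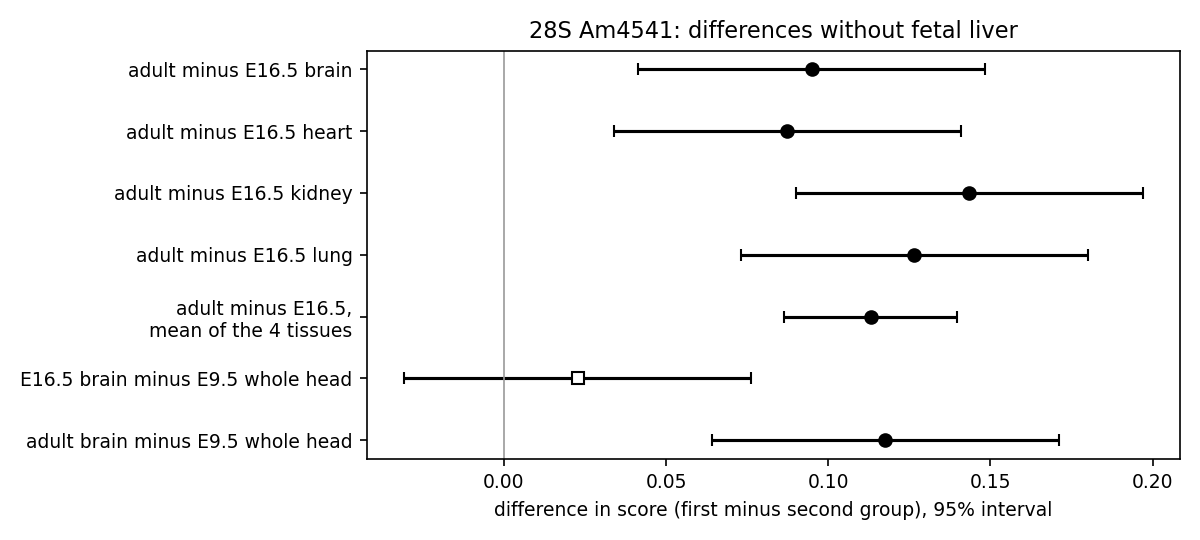
Difference in the score of LSU-Am4541 (x axis, first minus second group) with limma's 95% interval, for the 7 comparisons without fetal liver. Filled circles passed an adjusted p of 0.05; the open square, E16.5 brain minus E9.5 whole head at 0.0227, did not.

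Whether these rises differed among the 4 tissues was tested by an F test in limma. The differences spanned 0.0561 and the test did not pass (adjusted p = 0.742), with 0.935% of sites called. The F test over the 5 adult tissues did not pass either, at a range of 0.0596 (adjusted p = 0.542) with 4.67% of sites called. On the scale of minus log2 of the ratio to the neighbours, which stretches differences near full methylation, the same test passed (adjusted p = 0.0133), adult lung having the lowest score. The 4 E16.5 tissues other than liver spanned 0.0919 (adjusted p = 0.0895), with 8.41% of sites called. That test crossed the threshold from 5′ ends alone (adjusted p = 0.0413) and with 2 neighbours on each side (adjusted p = 0.049). At equal library medians the range was 0.0486 (adjusted p = 0.62), and in a model of these 12 libraries alone the adjusted p was 0.607.

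Brain could be followed from E9.5, although the earliest sample was the whole head. E16.5 brain minus E9.5 heads was 0.0227 (95% interval -0.0308 to 0.0762, limma adjusted p = 0.739), with 6.54% of sites called higher and 8.41% in either direction, and the libraries overlapped. The sign turned from 3′ ends alone (-0.0329), with 2 neighbours on each side (-0.0188) and at equal library medians (-0.00817). Adult brain exceeded E9.5 heads by 0.118 ± 0.026 (SE, adjusted p = 0.00151), where 30.8% of all sites were called higher. This difference was not called at equal library medians (0.0636, adjusted p = 0.137), from 3′ ends alone (0.0611, adjusted p = 0.508) or after thinning all libraries to the depth of the shallowest (0.102, adjusted p = 0.051). These comparisons share the E9.5 and brain libraries with each other and with the brain comparison above.

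Within a single tissue, stage could not be separated from a possible difference in how libraries were made. The labels name no batch. Here 3 library sets were inferred from whether the authors' barcode correction had changed a group's mean at SSU-Am1031 or SSU-Gm683. That these sets were made separately was not tested, and adult brain and adult liver form a set only because neither site was corrected in them. The adult and E16.5 libraries of each tissue lay in different inferred sets. Weighting heart against kidney and lung so that constant differences between sets dropped out, the rise was 0.111 ± 0.0159 (SE, limma adjusted p = 5.44e-06). Within sets, E16.5 heart minus E16.5 brain was 0.0189, E16.5 lung minus E16.5 kidney -0.0426, adult lung minus adult kidney -0.0596 and adult liver minus adult brain 0.0133, and limma called 0 of these 4 (adjusted p from 0.432 to 1), with 1 of them, adult lung minus adult kidney, at an unadjusted limma p of 0.0305. Fetal liver shared its set with E16.5 kidney, E16.5 lung and adult heart, whose libraries scored from 0.774 to 0.971. The median score over all tested sites was 0.896 to 0.926 in fetal liver, inside the 0.857 to 0.93 spanned by E16.5 kidney and lung. The authors' barcode correction changed 0 of the 11 group means of LSU-Am4541.

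LSU-Am4541 was not alone in being lowest in fetal liver. By the gap between fetal liver and the lowest other E16.5 tissue, it ranked 3 of 107 sites at 0.327, after SSU-Um1442 (0.364) and SSU-Gm867 (0.34) in 18S rRNA. Down to rank 37 of the 107 sites the gap was above 0, so fetal liver was the lowest E16.5 tissue there. The likeness of other sites was measured by Pearson's r over the 11 group means, as a description, since all sites share the same libraries. The fetal liver means, which chose the site, also enter this r. SSU-Um1442 was most alike (r = 0.939), followed by SSU-Am590 (0.913), SSU-Um121 (0.906), LSU-Gm2351 (0.906) and LSU-Am2388 (0.902). SSU-Um1442 scored 0.36 ± 0.236 (SD, n = 3) in fetal liver, so its libraries differed far more than those of LSU-Am4541. SSU-Am590 scored 0.604 ± 0.0556 there, and LSU-Gm2351 0.978 ± 0.00736, in a very narrow range over all groups. Without fetal liver the order changed: r fell to 0.762 for SSU-Um1442, then ranked 22, and was 0.948 for LSU-Am2388, then ranked 2. It fell to 0.7 for SSU-Am590 (rank 36), 0.84 for SSU-Um121 (rank 13) and 0.747 for LSU-Gm2351 (rank 25). Least alike were LSU-Gm4593 (r = -0.774) and SSU-Am576 (r = -0.627), which remained the lowest and second lowest without fetal liver. LSU-Gm4593 scored 0.711 ± 0.0492 in fetal liver, its highest group, and 0.635 in E9.5 heads. Scores below 0 are set to 0, and LSU-Gm4593 stood at 0 in all 3 libraries of adult liver and of adult brain. Its means in adult heart, lung and kidney were 0.0664, 0.114 and 0.217.

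**Figure D5:**
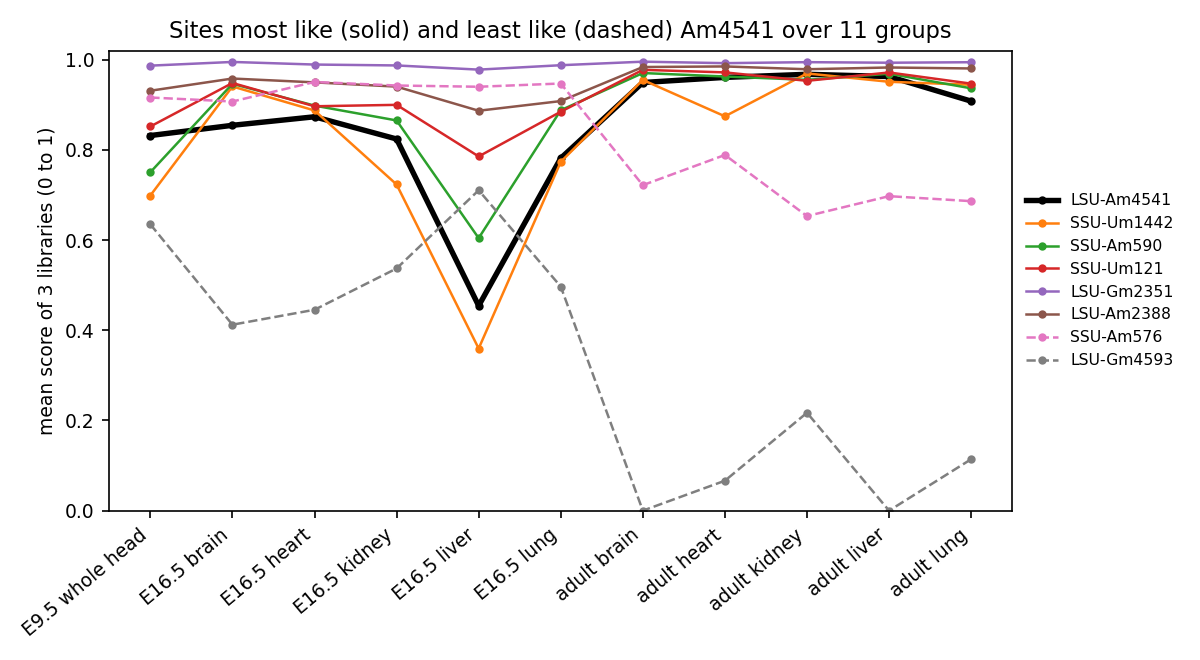
Mean score of 3 libraries (y axis, 0 to 1) of LSU-Am4541 (thick line), the 5 most-like sites (solid) and the 2 least-like sites (dashed) over 11 groups. LSU-Am4541, SSU-Um1442, SSU-Am590, SSU-Um121 and LSU-Am2388 are lowest in fetal liver, as is LSU-Gm2351 within a narrow range, and LSU-Gm4593 is highest there.

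The sites nearest on 28S rRNA were compared with all sites by their counts. Of the 10 other listed sites within 100 nucleotides, limma called 1 higher and 1 lower in the mean over the 4 tissues, where 19.6% and 1.87% of all 107 sites were called, and their median difference of 0.0264 was close to the 0.0253 of all sites. The called sites, named after their values were seen, were LSU-Gm4464 at 0.0702 and LSU-Gm4593 at -0.374. Upstream, LSU-Am4493 scored 0.982 ± 0.00739 (SD, n = 3) in fetal liver and LSU-Cm4506 0.848 ± 0.205, and their differences over the 4 tissues were 0.00529 and 0.00101, neither called. Downstream, LSU-Am4560 lay 19 nucleotides away and scored 0.44 ± 0.197 in fetal liver. This was the lowest of its 11 group means and near that of LSU-Am4541, but the SD of LSU-Am4560 ranged from 0.0499 to 0.39 over the 11 groups and its mean was 0.654 in adult liver. By the gap to the lowest other E16.5 tissue, LSU-Am4560 ranked 6 of 107 sites at 0.113. LSU-Gm4588 scored 0.62 ± 0.253 in fetal liver, and its difference of 0.16 over the 4 tissues was not called (adjusted p = 0.0625). Of the 32 other tested adenosines, 2 were called higher and 1 lower by limma, against the same 19.6% and 1.87% of all sites, with a median difference of 0.0207.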

How the data were processed

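RiboMeth-seq data were deposited for 33 libraries. Per the labels' protocols, RNA was partly broken down with alkali, fragments of a set size were purified on gels, linkers were joined with a modified Arabidopsis tRNA ligase, and sequencing used the Ion Proton. Cutadapt 2.0 and Bowtie2 2.3.4.1 appear in the submitters' processing notes, without settings. The authors deposited counts of 5′ and 3′ read ends for 6878 rRNA nucleotides, and a fraction methylated (the RiboMeth-seq score), per the file headers. The authors also deposited mean scores of 108 listed sites, barcode-corrected in part. Totals ranged from 463388 to 35156406 read ends per library.

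All 11 sheets carry adult lung's column headers, so sheets were assigned to groups by name, and columns to replicates by the end of their header. Sheet means equalled the authors' means of the named group at 84 to 104 of 108 sites within 1e-05, and those of another group at 2 at most. Scores were rebuilt from the counts, with weights from 1 to 0.5, to within 5e-10. Replicates differed by far more than sampling noise (chi-square per degree of freedom from 48.7).

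Sites with a mean flanking count of at least 10 in every library (107) entered 1 limma 3.58.1 model in R 4.3.3 with 11 group means and a variance trend, tested on simulated data. P-values were two-sided and adjusted by Benjamini-Hochberg over the 107 sites. Other steps ran in Python 3.11.15 with scipy 1.17.1, pandas 2.3.3, matplotlib 3.10.9 and numpy 2.4.6. The site, the lists and the tests were chosen with earlier results of these data known. Named besides LSU-Am4541 are the 2 nearest listed sites on each side, and the 5 most and 2 least alike sites over 11 group means. SSU-Gm867, by the rank of its fetal liver gap, and LSU-Gm4464, by its call, were added after their values were seen. Alternatives changed the read ends, neighbours, scale, library medians, barcode correction, depth, coverage minimum, libraries fitted and replicate block. Same-numbered libraries deviated together in E16.5 brain and E9.5 heads (r from 0.655 to 0.807), so the numbers pair these groups. In the other 5 comparisons they did not. Adult brain libraries 2 and 3 deviated instead with a differently numbered library of E16.5 brain (highest r 0.573 and 0.676). The same held against E9.5 heads (0.587 and 0.753), and the replicate block does not model this.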

Additional observations from a re-analysis of the deposited data

How the results depend on the processing

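The rise over 4 tissues kept its direction in 13 other settings and its call in 12. From 3′ ends alone, differences were not called: 0.0708 over 4 tissues, 0.094 in brain, 0.0187 in heart, 0.0938 in kidney, 0.0767 in lung and 0.0611 for adult brain minus E9.5 heads. Brain and heart lost their calls with equal weights for the 6 neighbours (0.0956 and 0.0965), equal library medians (0.0718 and 0.0725), thinning to the shallowest library (0.0909 and 0.0829) and without U4225 (0.0974 and 0.108). In models of the compared libraries alone the calls of heart (0.0873), kidney (0.143) and lung (0.127) were lost. Adult brain minus E9.5 heads lost its call at equal medians (0.0636) and after thinning (0.102). E16.5 brain minus E9.5 heads was -0.0329 from 3′ ends, -0.0188 with 2 neighbours and -0.00817 at equal medians. The causes were not tested. The range of E16.5 tissues passed from 5′ ends (0.0887), with 2 neighbours (0.0713) and with the replicate block (0.0919), and that of adult tissues on the log2 scale (1.52).

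Leaving out 1 library gave 0.0814 to 0.112 in brain, 0.0698 to 0.108 in heart, 0.136 to 0.154 in kidney, 0.109 to 0.141 in lung and 0.109 to 0.118 over 4 tissues. It gave 0.00568 to 0.0362 for E16.5 brain and 0.113 to 0.123 for adult brain, each minus E9.5 heads. The ranges were 0.0485 to 0.0736 between tissue differences, 0.0449 to 0.077 in adults and 0.073 to 0.109 at E16.5. The replicate block changed no other call; with it, the paired difference of E16.5 brain and E9.5 heads stayed at 0.0227 (adjusted p = 0.678, or 0.53 in those 6 libraries alone). A flanking minimum of 50 left 63 sites.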
